A study of Mus musculus with 3 samples.

Results

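Mn1 (ENSMUSG00000070576) was described here by its 5-methylcytosine (m5C) sites in mouse oocytes and 1-cell embryos. Its members were all sites that the deposited lists assigned to this gene, 48 of 40298 listed sites in all. The list of the GV oocyte held 19 Mn1 sites of 15910, that of the MII oocyte 30 of 20694 and that of the 1-cell embryo 29 of 24996. The gene was chosen by its number of called sites in the oocytes, so the site counts are a description and carry no test. In the GV oocyte 4 genes shared its rank, the second by number of sites, and it was alone at that rank at MII. In the 1-cell embryo it shared rank 5 with other genes.

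All 3 libraries came from wild-type C57BL/6J mice aged 7 to 8 weeks, and there was 1 library per stage, so no value below has a replicate check. GV oocytes, which are full-grown and still hold the germinal vesicle nucleus, were taken from ovaries 48 h after 10 IU of PMSG, a gonadotrophin that drives follicle growth. MII oocytes, arrested at the second meiotic metaphase, were taken from oviducts 12 h after 5 IU of hCG, the ovulatory hormone, in females first given 10 IU of PMSG. The 1-cell embryos came from females mated with males of the same strain, 24 h after 5 IU of hCG that followed 5 IU of PMSG. The zona pellucida was removed from all samples. The labels gave these hormone doses. Other doses stand in the methods of the study, which also name RNA depleted of ribosomal RNA where the labels name polyadenylated RNA, so both points are unsettled. The wording on conversion differs between oocytes and embryos, and stage and library preparation cannot be told apart. The 1-cell list also differs in coverage and levels from the one in the supplement of the study.

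MN1 is a transcriptional coregulator. It is needed in the mouse for growth of the palate and membranous skull bones, and in people its gene is rearranged in meningioma and in myeloid leukaemia, where it can be fused with ETV6. In mRNA, m5C is placed mainly by NSUN2, at sites followed by a run rich in G (Type I sites), and by NSUN6 at sites in a CUCNA motif (Type II sites). A fully grown oocyte makes almost no new RNA, so that maturation and the first hours after fertilization rely on stored maternal transcripts. In bisulfite sequencing, unmethylated C is read as T and m5C stays C, and the m5C level is the percent of reads at a site that stayed C.

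The Mn1 gene lies on the plus strand of chromosome 5 in GRCm38. Its longest coding transcript in GENCODE spans chr5:111417442-111457033 in 2 exons of 4442 and 2418 nt, and its coding sequence runs from the start codon at 111418166 to a stop codon that ends at 111454791. RefSeq starts the gene upstream, at 111417300, with a first exon that ends at 111417663. The 142 nt of this exon before the GENCODE start are named the upstream exon here, though they are not a separate exon. They belong to the 5′ UTR in RefSeq, and the 5′ UTR values below leave them out. RefSeq also has an intron between 111417663 and 111417819, and site 8, listed at GV alone with 28.6% of 21 reads, lies inside it but in the 5′ UTR of the GENCODE transcript. Sites are numbered here from 5′ to 3′. The 9 sites listed at every stage are shown first, since all 3 stages can be compared only at them. Each sequence is the GRCm38 genome on the transcribed strand with T for U, and capitals mark the called C.
Site 1, upstream exon, chr5:111417365-111417389: cggcccattcCcgggtccgagggga
Site 3, 5′ UTR, chr5:111417471-111417495: cgcgaactcgCgcggcgaccggcga
Site 6, 5′ UTR, chr5:111417560-111417584: cccgcgtctaCtgctgtgaatccag
Site 9, 5′ UTR, chr5:111417865-111417889: gccatcgaccCggggcatgggcccc
Sites 27 and 28, coding sequence, chr5:111420141-111420166: gggtgcttttCCgaggctctttgcag
Site 34, coding sequence, chr5:111420704-111420728: cccgacagcgCggttgcagccggta
Sites 46 and 47, 3′ UTR, chr5:111455771-111455800: tgcctgttccCgagactCacgttccctttg

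Another 3 sequences are shown for sites that were not listed at every stage but take part in the calls below. Site 15 and the middle of the run of sites 43 to 45 had the largest rise of a pair of libraries, and site 21 was called higher at MII and not listed in the embryo.
Site 15, 5′ UTR, chr5:111418083-111418107: gccggaggcgCgcggcggagcaggc
Site 21, coding sequence, chr5:111418700-111418724: tcgggcacctCgggccacgccgtgc
Sites 43 to 45, 3′ UTR, chr5:111455601-111455627: gccctgttctCCCagatggcagccagg

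Called sites were spread over both exons of Mn1, with the 5′ UTR holding more of them per C than the coding sequence or the 3′ UTR. Of the 48 sites, 2 lay in the upstream exon, 13 in the 5′ UTR, 26 in the coding sequence, while 7 were 3′ UTR sites. Per 1000 C, with the libraries pooled, the 5′ UTR had 44.4 called sites, the coding sequence 19.4 and the 3′ UTR 12.5. In the same order there were 13.65, 6.72 and 8.90 at GV and 20.5, 12.7 and 10.7 at MII. At the 1-cell stage there were 34.1, 11.2 and 3.56. The coding sequence held 54.2% of the 48 sites (95% Wilson interval 40.3 to 67.4%) and 59.4% of the C. These regions also differed in base composition, with a GC content of 73.8% in the 5′ UTR, 64.6% in the coding sequence and 50.5% in the 3′ UTR. Median coverage at listed sites, in the same order of regions, was 205, 156 and 72 reads at GV and 216, 99 and 51.5 at MII. At the 1-cell stage it was 61.5, 48 and 27.5 reads. The densities count all C of a region, since the lists do not give which C had coverage. The parts of GC content and coverage in the density were not tested.

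Exon 1 held 41 of the 48 sites and 1621 of the 2255 C. The 72 C of the coding sequence in exon 2 held no site, where all 1339 coding C held 26. The longest stretch without a called site was 905 nt between sites 21 and 22, in codons 182 to 484. It holds 329 C at a GC content of 64.1%. Whether the C of this stretch and the 72 C had coverage is not given in the lists. Called sites also came close together, with 3 adjacent pairs and 16 sites that had another within 10 nt. Of the 26 coding sites, 6 were at the first codon position, 7 at the second and 13 at the third. The third position held 50% of coding sites and 35.6% of coding C.

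**Figure D1:**
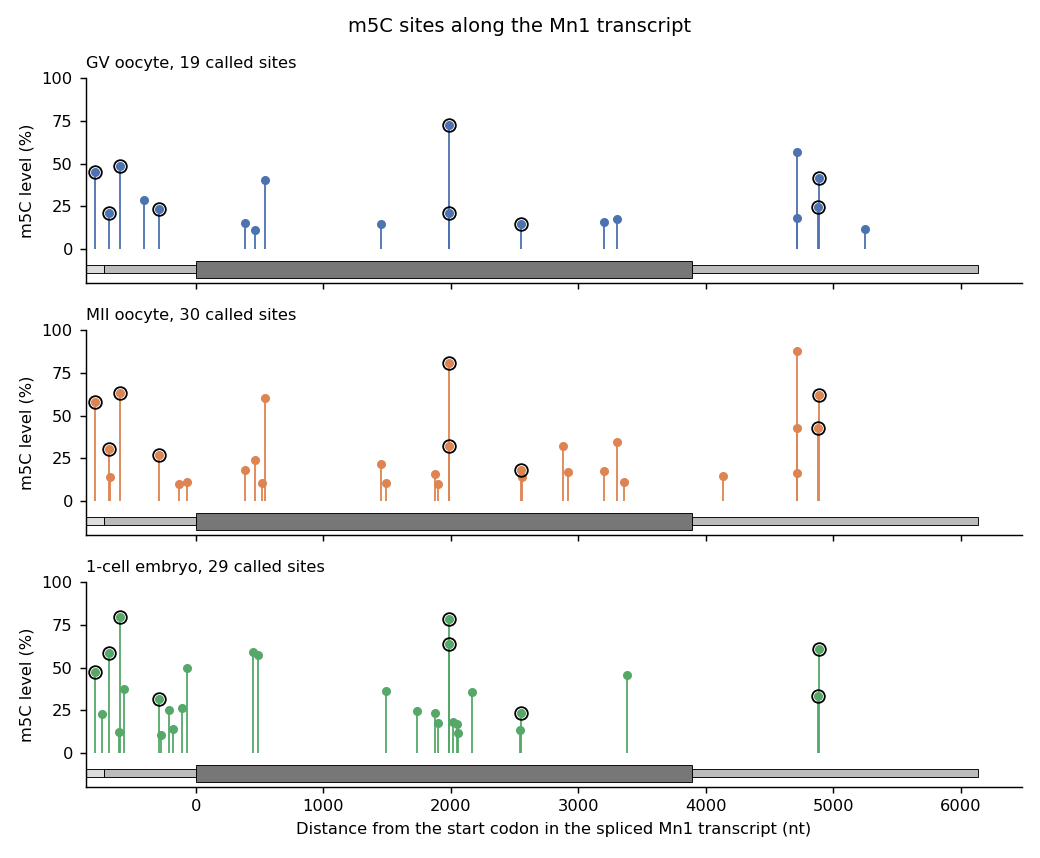
m5C level (%) of each called Mn1 site against its distance from the start codon in the spliced transcript (nt), with 1 panel per library and black circles around the 9 sites listed at every stage. Bars under each panel show the upstream exon (light), the UTRs (grey) and the coding sequence (dark); the 1-cell embryo had 10 sites in the 5′ UTR and 2 in the 3′ UTR.

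By region, the 5′ UTR had 4 listed sites at GV, 6 at MII and 10 at the 1-cell stage. The coding sequence had 9, 17 and 15 in the same order. The 3′ UTR had 5, 6 and 2. The Wilson intervals of these shares overlapped between the libraries in each region, and a difference in location was not tested. Coverage at the 2 listed 3′ UTR sites of the embryo was 27 and 28 reads, near the minimum of 20 that the lists require.

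Of the 48 Mn1 sites, 9 were listed at every stage, 18.8%, beside 15.2% of all 40298 sites. Both oocytes but not the embryo listed 8 sites, and the MII oocyte and the embryo without the GV oocyte 4. The GV oocyte and the embryo without the MII oocyte shared 0. These are 16.7, 8.33 and 0% of the 48, beside 16.9, 4.64 and 0.826% of all sites. The GV oocyte alone listed 2 sites, the MII oocyte alone 9 and the 1-cell embryo alone 16. In percent of the 48 these are 4.17, 18.8 and 33.3, beside 6.51, 14.6 and 41.3% of all sites. The embryo listed 47.4% of the GV sites and 43.3% of the MII sites of Mn1, beside 40.7 and 38.7% over all sites. Absence from a list may mean an unmethylated C, a C below the limits of 10% and 5 unconverted reads, or a C without coverage, and the lists do not separate these.

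Most sites in the MII list that were not in the GV list had low levels. These 13 sites had levels of 10 to 32.1% with a median of 13.9%. The 16 sites of the embryo alone had levels of 10.2 to 59.1%, with a median of 23.6%, and coverage of 21 to 76 reads. Of these, 1 lay in the upstream exon, 6 in the 5′ UTR and 9 in the coding sequence. Their nearest listed Mn1 site at MII had 75 to 241 reads, at a distance of 6 to 177 nt. The 19 oocyte sites missing from the embryo had as nearest listed Mn1 site in the embryo one with a median of 27 reads, and with fewer than 30 reads at 13 of the 19. That site was 9 to 744 nt away, with a median of 75 nt.

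Levels at Mn1 sites ranged widely within each library. The GV oocyte levels ran from 11.2 to 72.9% with a median of 21.2%, against 19.5% over all its listed sites. In the MII oocyte they ran from 10 to 87.8% with a median of 19.8%, which is also the median of all its sites. The 1-cell embryo levels ran from 10.2 to 79.7% with a median of 31.7%, against 23.8%. The embryo median was 46.4% at the 14 sites with fewer than 50 reads, which had 8 to 37 unconverted reads each, and 18.3% at the 15 sites with 50 or more. With at least 50 reads the MII median was 18.1%. The part of coverage in the embryo levels was not tested. Sites at 50% or more numbered 2 at GV, 6 at MII and 8 at the 1-cell stage, which is 10.5, 20 and 27.6% of Mn1 sites beside 11.04, 11.9 and 16.7% of all sites.

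Site 28, at the first position of codon 663, was the Mn1 site with the highest level at GV. Its level there was 72.9% (170 reads), with 80.7% (155 reads) at MII and 78.7% (47 reads) at the 1-cell stage. Its levels were thus high at each stage, and no pair of libraries passed at this site by Fisher's exact test with Benjamini-Hochberg adjustment (adjusted p = 0.292 for MII against GV, 0.893 for 1-cell against MII and 0.526 for 1-cell against GV). The interval of the difference between the 1-cell embryo and the MII oocyte ran from -16.6 to 9.67 points.

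Site 27, the C just before it, behaved differently. It was at 21.2% (170 reads) at GV, 32% (150 reads) at MII and 63.8% (47 reads) in the embryo. The adjacent C differed by 51.8 points at GV, 48.7 points at MII and 14.9 points in the embryo. Coverage of the pair was equal or nearly equal in each library.

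In the 5′ UTR, site 6 was at 48.8% (297 reads) at GV, 63.2% (212 reads) at MII and 79.7% (64 reads) at the 1-cell stage. Site 3 was at 21.2% (293 reads), 30.3% (241 reads) and 58.6% (58 reads) in the same order. Both were highest in the embryo. Site 9 was at 23.1% (117 reads), 26.7% (116 reads) and 31.7% (41 reads), and no pair of libraries passed the test there. Site 1 in the upstream exon was at 45.1% (102 reads), 58.2% (122 reads) and 47.4% (38 reads).

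In the 3′ UTR, site 46 was at 24.6% (203 reads) at GV, 42.9% (161 reads) at MII and 33.3% (27 reads) in the embryo. Site 47, which lies 7 nt further on, was at 41.4% (208 reads), 62% (163 reads) and 60.7% (28 reads). Both were lowest at GV. Site 34, in the coding sequence, had the lowest level of the every-stage sites in each library, at 14.5% (173 reads), 17.8% (135 reads) and 23.3% (60 reads).

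A run of 3 adjacent C in the 3′ UTR held the highest Mn1 level of any library. In the MII oocyte its middle C, site 44, was at 87.8% (49 reads), with site 43 before it at 16.3% (49 reads) and site 45 after it at 42.6% (47 reads). In the GV oocyte site 44 was at 56.9% (72 reads) and site 45 at 18.3% (71 reads), while site 43 was not listed. The run was not listed in the embryo.

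**Figure D2:**
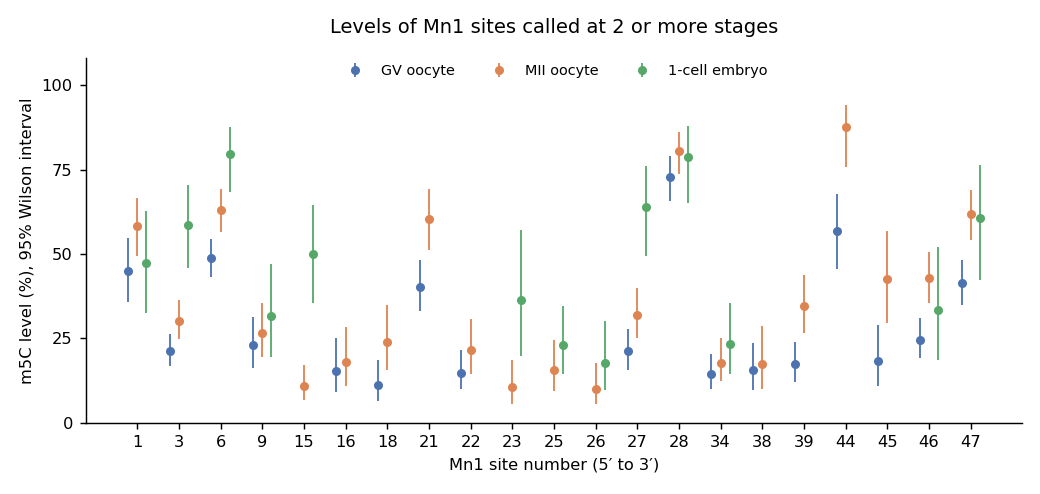
m5C level (%) with its 95% Wilson interval at the Mn1 sites listed at 2 or more stages, in order from 5′ to 3′, with 1 colour per library. Site 28 was above 70% at every stage, while sites 3, 6 and 27 were highest at the 1-cell stage.

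Between GV and MII, 7 of the 17 shared Mn1 sites were called higher in the MII library and none lower. Over all 12954 shared sites, 19.6% were called higher and 0.965% lower. A call is an adjusted p under 0.05 in a two-sided Fisher's exact test on unconverted and converted reads, with Benjamini-Hochberg adjustment over all shared sites. It compares 2 libraries and not the conditions, and neighbouring sites share fragments of 150 to 200 nt, so they are not independent. The calls rest on each read being a separate molecule: with all reads divided by 5 before the exact test, none of the Mn1 calls of any pair remained. At an unadjusted p under 0.05 there were 10 such sites, all higher at MII. All 17 were higher in value, beside 77.0% of all shared sites. They rose by 1.93 to 30.8 points with a median of 12.8 points (interval 6.72 to 18.2), beside a median of 4.87 points over all shared sites. A shared site is at 10% or more in both libraries, so a site that fell below 10% is left out. Counts of lower sites are limited by this, at Mn1 as over all sites and in each pair. Sites 8 and 48 of the GV list were not in the MII list. The choice of Mn1 by its number of oocyte sites is not independent of its oocyte levels.

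The 7 called sites lay mostly in the 3′ UTR. There, all 4 shared sites were called higher, with differences of 18.2 to 30.8 points. In the coding sequence 2 of 9 were called, in the 5′ UTR 1 of 3 and in the upstream exon 0 of 1. Site 44 had the largest rise, 30.8 points (interval 14.7 to 44.0; Fisher's exact test with Benjamini-Hochberg adjustment, adjusted p = 0.00292). Site 45 rose by 24.2 points (7.48 to 40.2; exact test, adjusted p = 0.0336) and site 47 by 20.6 points (10.4 to 30.2; exact test, adjusted p = 0.00129).

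Sites 21 and 39 are named for their calls, after their values were seen. Site 21, in codon 182, rose from 40.4% (156 reads) to 60.6% (109 reads) (exact test, adjusted p = 0.0127). Site 39, in codon 1102, rose from 17.3% (156 reads) to 34.8% (118 reads) (exact test, adjusted p = 0.00906). Sites 6 and 46 rose by 14.4 and 18.2 points (exact test, adjusted p = 0.0116 and 0.00316). Coverage at the shared 3′ UTR sites at MII was 0.662 to 0.793 of that at GV.

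Between MII and 1-cell, 5 of 13 shared Mn1 sites were called higher in the embryo and none lower, where 51.3% of all 8015 shared sites were called higher and 2.45% lower. Of the 13 sites, 9 were higher in value and 4 lower, where 83.8% of all shared sites were higher in value. The median difference was 7.52 points (interval -1.92 to 28.3), beside 12.7 points over all shared sites. With at least 50 reads in both libraries, 5 shared sites were left and 2 were called, and with a level of at least 20% in both, 3 of 8 were called and the median difference was 1.87 points. The called sites were 3 of 4 in the 5′ UTR, 2 of 6 in the coding sequence and 0 of 2 in the 3′ UTR.

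Site 15, 73 nt before the start codon, had the largest rise of the pair. It was at 10.9% (138 reads) at MII and 50% (42 reads) in the embryo, a difference of 39.1 points (interval 23.4 to 54.2; Fisher's exact test with Benjamini-Hochberg adjustment, adjusted p = 1.6e-06). Site 27 rose by 31.8 points (15.5 to 45.9; exact test, adjusted p = 0.000491) and site 3 by 28.3 points (14.1 to 41.3; exact test, adjusted p = 0.000373). Site 6 rose by 16.5 points (exact test, adjusted p = 0.0304). Site 23, in codon 497, was at 10.5% (86 reads) and 36.4% (22 reads) (exact test, adjusted p = 0.0142), and is named for its call after its values were seen.

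The 4 sites lower in value in the embryo did not pass the test. Site 1 differed by -10.8 points (interval -27.9 to 6.92), site 46 by -9.52 points (-26.1 to 10.7), site 28 by -1.92 points and site 47 by -1.25 points. The intervals of sites 1, 46 and 47 include falls of more than 20 points, so falls of that size were not excluded at them.

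Between GV and 1-cell, all 9 shared Mn1 sites were higher in value in the embryo and 3 were called higher there, with none lower. Over all 6478 shared sites 90.4% were higher in value, while 66.1% were called higher and 1.05% were called lower. The median difference was 8.88 points (interval 5.78 to 37.5), beside 19.2 points over all shared sites. It was 30.9 points at the 3 sites with at least 50 reads in both libraries and 14.04 points at the 8 sites with a level of at least 20% in both. The called sites were 27 (42.7 points), 3 (37.5 points) and 6 (30.9 points). Their adjusted p was 2.59e-07, 1.28e-07 and 1.84e-05 by Fisher's exact test with Benjamini-Hochberg adjustment. The 3 comparisons share libraries, and their values are set side by side for this reason.

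**Figure D3:**
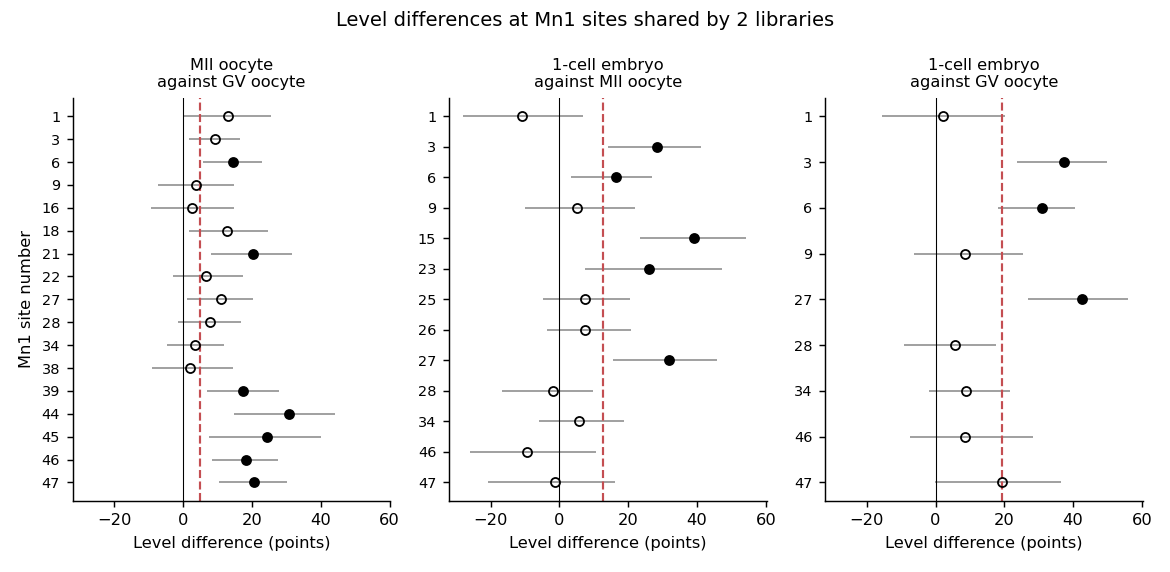
Difference in m5C level (percentage points, with its 95% interval) at each shared Mn1 site for the 3 pairs of libraries. Filled points passed Fisher's exact test at an adjusted p under 0.05, and the red dashed line is the median over all shared sites, 4.87, 12.7 and 19.2 points from left to right.

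Coverage at Mn1 sites fell between the libraries about as it did at all listed sites. Median coverage of Mn1 sites was 142 reads at GV, 117 at MII and 51 in the embryo, beside 121, 107 and 58 reads over all listed sites. At shared sites the MII oocyte had a median of 0.780 of the GV coverage at Mn1 and 0.867 over all shared sites. The embryo had 0.304 of the MII coverage at Mn1 and 0.318 over all. Coverage is a read count with no normalization, and the reads at all listed sites summed to 2616279 in the embryo and 5285011 at MII. Sequencing depth, fewer cells and less RNA per cell cannot be told apart in these lists. Within Mn1, the embryo coverage relative to the MII oocyte was a median of 0.303 in the 5′ UTR, 0.373 in the coding sequence and 0.170 in the 3′ UTR.

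**Figure D4:**
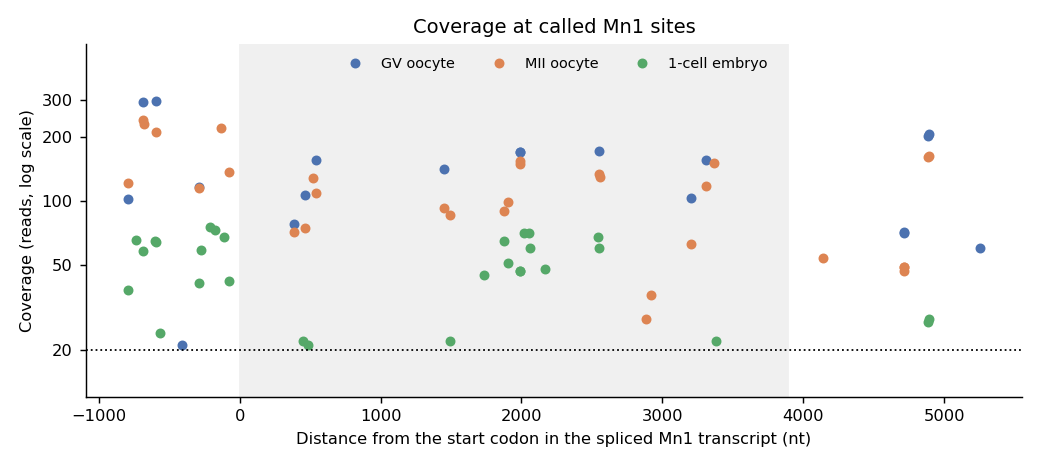
Coverage (reads with C or T, log scale) at each called Mn1 site against its distance from the start codon (nt), with 1 colour per library, the coding sequence shaded and a dotted line at the minimum of 20 reads. Embryo sites had 21 to 76 reads, MII oocyte sites 28 to 241 and GV oocyte sites 21 to 297.

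The C called in Mn1 were followed by more G than its other C. At the 4 positions after a called site, 55.7% of bases were G (interval 48.7 to 62.6%), against 27.1% after the 2206 C of Mn1 that were never called. At the first position after the site, G stood at 26 of 48 sites, 54.2% (interval 40.3 to 67.4%), against 17.3% of uncalled C. In all genes together this share was 33.5% of sites at GV, 33.7% at MII and 31.6% at the 1-cell stage. In Mn1 it was 42.1, 56.7 and 62.1% in the same order. The GC content of the stretches around called and uncalled C was not matched, and its part in these shares was not tested. No Mn1 site lacked a G at the 4 positions, and 20 of 48 had 3 or 4, 41.7%. At MII, 50% of Mn1 sites had 3 or 4, beside 34.7% over all genes, of which 6.63% lacked a G there. At +2 the MII share of G was 53.3% in Mn1 and 65.0% over all genes, at +3 it was 66.7 and 62.0%, and over the 4 positions 59.2 and 52.6%. Over the 48 sites of any stage the Mn1 share was 56.2% at both +2 and +3.

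The motif CUCNA, searched on the transcribed strand with its first base as the site, occurred at 27 C of Mn1 and at none of its called sites. This allows a Type II share of up to 6.25%. Over all genes, 939 of 15900 sites at GV, 1040 of 20686 at MII and 858 of 24985 at the 1-cell stage were Type II. A share like that of all genes was thus not excluded for Mn1. Short words recurred among the called sites. The word CGAGG, counted from the called C, stood at sites 11, 28, 37 and 38, which are 4 of the 10 C of Mn1 with it, and it can be seen at site 28 in the sequence above. CGGCG stood at 3 of its 9 C, CGCGG at 3 of 15 and CGGAG at 3 of 23. These words were picked after the sites were seen, and a match is a description. Sites 6 and 44, both among the 3 highest levels of each oocyte library, had only 1 G each at these positions. Across sites the level and the number of G had a Pearson r of -0.03 at GV, -0.36 at MII and 0.08 in the embryo, over 19, 30 and 29 sites that share a transcript and a library.

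**Figure D5:**
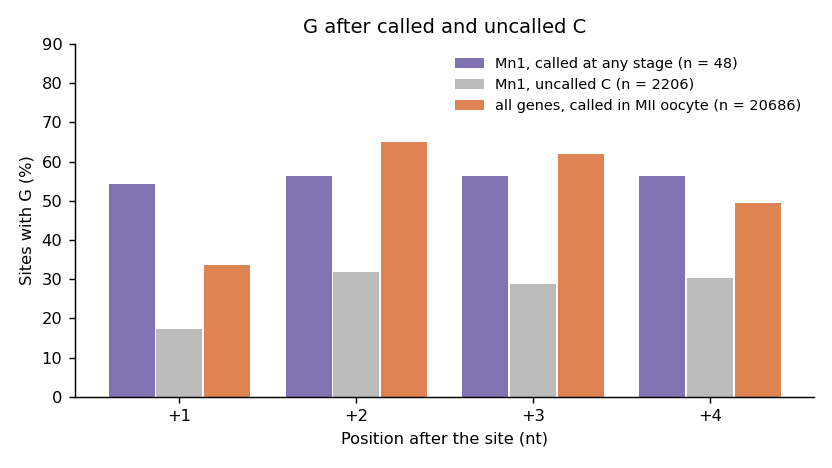
Share of sites (%) with G at each of the 4 positions after the C, for the 48 called Mn1 sites, the 2206 uncalled C of Mn1 and all sites called at MII. The first position showed the widest gap between Mn1 and all genes, 54.2 against 33.7%.

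In predicted folds at 37 °C of windows reaching 50 nt to each side of the C, 29 of 48 called sites were paired, 60.4% (interval 46.3 to 73.0%), beside 59.9% of uncalled C. At the 5 positions after the C, 66.7 to 79.2% of bases were paired at called sites and 54.7 to 58.3% at uncalled C, and at the 5 positions before it 47.9 to 58.3% and 56.5 to 59.9%. With shorter windows of 61 nt the C itself was paired at 58.3% of called sites and 51.7% of uncalled C. The windows around called sites had a median folding energy of -39.7 kcal/mol, against -33.2 kcal/mol around uncalled C. By stage, 52.6% of sites at GV, 50% at MII and 69.0% in the embryo were paired, with overlapping intervals.

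Mn1 is a long and GC-rich transcript among the listed genes. Its 6860 nt stood at percentile 90.1 of 8032 listed genes, whose median was 3157 nt, and its GC content of 60.99% at percentile 97.0. Per 1000 C it had 8.66 sites at GV, 13.7 at MII and 13.2 at the 1-cell stage, where the median gene with a site had 2.48, 2.94 and 3.91. Among genes with a site it stood at rank 222 of 5931, 62 of 6529 and 346 of 6215. These counts include the upstream exon, whose C are not in the denominator; without its sites the values were 8.20, 13.2 and 12.3, at ranks 272, 70 and 448. Mn1 also had a higher unconverted background than most genes. The rate recovered from the deposited p-values was 0.488% at GV, 0.820% at MII and 0.883% in the embryo, beside a median gene at 0.264, 0.367 and 0.354%. Its part in the number of called sites was not tested.

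A set of 3 other genes with many oocyte sites was taken for comparison. Lama5, which encodes a laminin chain of basement membranes, had 23, 34 and 38 sites at GV, MII and 1-cell. Kmt2b, a histone H3 lysine methyltransferase needed in the oocyte, had 19, 28 and 2 sites, and Cep170b, a centrosomal protein gene, 19, 27 and 6. Wdfy3, which also had 19 sites at GV and is named after its values were seen, had 24 at MII and 4 at 1-cell. Between GV and MII Lama5 had 3 of 20 shared sites called higher, Kmt2b 3 of 19 and Cep170b 5 of 19, with median differences of 5.65, 6.72 and 5.35 points. The calls amount to 15, 15.8 and 26.3%, beside 19.6% of all shared sites. The median at Mn1 was 12.8 points. Between MII and 1-cell, Lama5 had 8 of 16 sites called higher (50%) and Cep170b 2 of 5 (40%), beside 51.3% of all shared sites. Their medians were 16.7 and 8.24 points, against 7.52 at Mn1, where 5 of 13 were called. From GV to 1-cell the calls were 11 of 16 (68.8%) and 2 of 4 (50%), beside 66.1%. The medians were 26.6 and 22.1 points, against 8.88 at Mn1, where 3 of 9 were called. Kmt2b shared no site with the embryo. Differences between the genes were not tested. By Euclidean distance in log2(sites + 1) over the 3 libraries, the genes nearest to Mn1 among 8353 were Lama5 (0.493), Gse1 (0.583), Caskin2 (0.594), Kmt2d (0.658) and Tet3 (0.744).

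Genes that work with MN1 or in the same leukaemias were described from a list of 17. In the GV oocyte 9 of them had 43 sites, at MII 9 had 49 and in the embryo 10 had 99. Among nuclear receptors and their partners, Rxra, a retinoid X receptor, had 11, 11 and 14 sites, and Rara, the retinoic acid receptor alpha, had 3, 4 and 4. The acetyltransferase genes Crebbp and Ep300 had 6, 9 and 14 sites and 3, 3 and 8 sites, and Ncoa3, a nuclear receptor coactivator, had 4, 6 and 15. The SWI/SNF remodelling subunits Arid1a and Smarca4 had 5, 7 and 23 sites and 3, 3 and 10 sites. The histone H3 methyltransferase gene Dot1l had 7, 4 and 9 sites, Zbtb24 had 1, 2 and 1, and Etv6 had 1 site in the embryo alone. Meis1, Hoxa9, Pknox1, Ring1, Tbx22 and Kmt2a had no listed site, which does not show that their RNA was absent. At shared sites of the list, in the later stage of each pair, 6 of 34 were called higher between GV and MII, 9 of 22 between MII and 1-cell and 11 of 18 between GV and 1-cell, and none was called lower. These are 17.6, 40.9 and 61.1%, beside 19.6, 51.3 and 66.1% of all shared sites.

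Sites in marker genes were counted for the labelled cell types. A gene without a listed site may still have had RNA, so these counts cannot verify the labels. Of 13 oocyte genes, 7 had a site at GV, 9 at MII and 12 in the embryo, and Dppa3 had none in any list. Of 10 granulosa and cumulus cell genes, 2 had a site at MII, Amh with 96 reads and Cyp19a1 with 49 reads, and 0 in the other libraries. The part of such cells in the Mn1 values was not tested.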

How the data were processed

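Lists of m5C sites called by RNA bisulfite sequencing were analysed, 1 per library. Per the labels and the methods of the study, the authors trimmed reads (cutadapt 1.13, Trimmomatic 0.36), aligned them to converted GRCm38 sequence (HISAT2, then Bowtie2 2.2.9 for the remainder on transcripts) and filtered sites on quality, coverage, level and conversion-resistant genes. Deposited coverage is a read count without normalization, and the deposited level is a fraction, printed in percent. The authors' deposited p-value is one-sided and binomial, against the unconverted rate of each gene, and served here to recover that rate. Listed sites had at least 20 reads, a level of 10% and 5 unconverted reads.

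Unconverted reads were level times coverage, whole to within 2.9e-05 reads. Reads at listed sites summed to 4475058 (GV), 5285011 (MII) and 2616279 (1-cell). Regions came from GENCODE M21 and RefSeq. Levels at shared sites were compared by two-sided Fisher's exact tests (scipy 1.17.1), Benjamini-Hochberg adjusted over all shared sites. A trial of these tests on simulated data drew reads as independent molecules, so it could not check that assumption. Reads carried no molecular identifiers, so 95% intervals (Wilson for shares, Newcombe for differences of levels, order statistics for medians) cover counting error only. ViennaRNA 2.7.2 folded the windows. Sites named singly were those listed at every stage, the 3 highest per library and the 3 largest rises and falls per pair. The gene and the lists were chosen with earlier results of these data known. In the list of 17 genes, 1 is not reported here. Alternatives were other minimums of coverage and level, reads divided by 5, another region order, a CUCCA motif, a window of 61 nt and another distance.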

Additional observations from a re-analysis of the deposited data

How the results depend on the processing

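Of 97 alternative values, 72 were classed as similar to the main value, 25 as moved and none as reversed. Values classed as similar could still change. The GV oocyte went from 19 to 14 Mn1 sites with at least 100 reads. Calls between GV and MII went from 7 to 5 with at least 50 reads. Counts, shares and densities have no direction, so they could not be classed as reversed. The other region order left the coding share of each library unchanged. With a level of at least 20%, the GV oocyte had 11 Mn1 sites, 5.01 per 1000 C, a coding share of 27.3% and 18 sites in the pathway list. The MII oocyte then had 15 sites with a median of 42.6%, 6.84 per 1000 C and 31 pathway sites. The embryo then had 61 pathway sites, and 3 of 8 shared Mn1 sites were called higher between MII and 1-cell. With at least 50 reads, the embryo had 15 sites with a median of 18.3%, 6.84 per 1000 C and 54 pathway sites. Of 5 shared Mn1 sites with that coverage in both libraries, 2 were called higher than in the MII oocyte. With at least 100 reads, pathway sites numbered 25, 27 and 12 in the GV oocyte, MII oocyte and embryo, Mn1 had 17 sites or 7.75 per 1000 C in the MII oocyte, and the embryo had 0 sites or 0 per 1000 C, so that no embryo median, share or comparison was possible. The cause was not tested beyond these limits removing sites. Reads divided by 5 left 0 of 17, 0 of 13 and 0 of 9 sites called by Fisher's exact test, where 0.672, 7.34 and 21.1% of all shared sites were still called higher, so the calls rest on reads being independent molecules. Calls between GV and MII were 5 of 15, 6 of 11 and 5 of 10 at the minimums of 50 reads, 100 reads and 20%, beside 24.5, 32.8 and 24.3% of all shared sites. No paired analysis was possible because each stage had 1 library.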
